A study of Mus musculus with 12 samples.

Results

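The genes of fatty acid oxidation and ketone body formation were followed in mouse liver, with 45 genes matched by symbol in both deposited count tables out of 38024 gene names in either table. They were placed by role into the carnitine shuttle (5 genes), mitochondrial oxidation (13), peroxisomal oxidation (8), omega oxidation (4), fatty acid uptake and activation (6), acyl-CoA thioesterases (4), ketone body metabolism (2) and regulators or targets of the nuclear receptor PPAR alpha (3). Ech1 and Eci2, whose products are found in both organelles, were counted with peroxisomal oxidation.

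The study asked how hepatocytes that lose Cflar, the gene of the caspase 8 inhibitor cFLIP, and hepatocytes that make the growth factor FGF18 change the liver. Whole-liver RNA of C57BL/6 mice was sequenced in 4 groups of 3 libraries. CflarFF mice carried floxed Cflar alleles with loxP sites around exon 1, and CflarLKO mice carried the same alleles together with Cre under the albumin promoter (Alb-Cre). Both were females that were housed singly and received a choline-deficient diet with 0.15% DL-ethionine in the water (CDE diet) for 28 days from 8 weeks of age. Fgf18Tg mice carried Alb-Cre with an Fgf18 transgene behind a loxP-flanked stop in the Rosa26 locus, and NonTg mice were their controls. Both were kept on normal diet to 8 weeks of age, and their sex is not given in the labels. Their 6 libraries held 59 to 187 counts of the Y-linked Ddx3y and 0 to 4 of Xist, against 0 to 3 and 2694 to 4458 in the 6 CDE diet libraries, so sex-linked genes differed between the experiments and not within them. Each library is taken as 1 mouse, and p-values measure the spread between these libraries.

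Hepatocytes take up fatty acids, activate them to acyl-CoA and pass them to mitochondria through the carnitine shuttle, where each turn of beta oxidation yields acetyl-CoA for energy or ketone bodies. Peroxisomes shorten very long and branched chains, and the omega pathway of the endoplasmic reticulum turns fatty acids into dicarboxylic acids. PPAR alpha, paired with RXR, switches on many genes of all 3 routes in fasting and under fatty acid load.

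Total counts ranged from 6487178 to 10414883 in the CDE diet libraries and from 1136680 to 3089872 in the normal diet libraries, so low counts were less precise in the latter. Fgf18 rose by 5.27 ± 0.38 on the log2 scale (log2 fold change ± standard error) in Fgf18Tg livers, with 63 to 191 counts in NonTg and 2803 to 9564 in Fgf18Tg libraries (adjusted p = 0.00024, edgeR quasi-likelihood test, Benjamini-Hochberg adjustment over all genes tested). In the deeper CDE diet libraries Fgf18 had only 0 to 1 counts in CflarFF and 3 to 7 in CflarLKO. Why NonTg libraries held more was not tested. Cflar fell by 0.47 ± 0.13 in CflarLKO livers (adjusted p = 0.024), with 515 to 602 counts in CflarFF and 397 to 658 in CflarLKO before scaling. Counts for Cflar cover the whole gene and all liver cells, so they are a weak check of a deletion of exon 1 in hepatocytes, and Cflar was also lower in Fgf18Tg, where it was not targeted (-0.43 ± 0.13, adjusted p = 0.028). Markers of other cell types moved with both alleles. In CflarLKO livers 8 of 12 stellate cell markers, 9 of 12 macrophage markers and 5 of 7 cholangiocyte markers were higher, and 13 of 18 hepatocyte markers were lower. In Fgf18Tg livers 10 of 11, 3 of 8 and 2 of 3 tested genes of these lists were higher, 9 of 18 hepatocyte markers were lower and Apoa1 was higher. The stellate list summed to 2799 to 4227 normalised counts in CflarFF and 9129 to 12029 in CflarLKO, and to 355 to 469 in NonTg and 1407 to 1765 in Fgf18Tg. The macrophage list summed to 2252 to 3283, 5355 to 6448, 197 to 268 and 410 to 467 in the same order, and the cholangiocyte list to 1277 to 4097, 7850 to 11395, 114 to 165 and 445 to 671. The hepatocyte list summed to 815676 to 1615586, 512301 to 619161, 284648 to 310492 and 250636 to 279224. None of 8 endothelial markers passed the test in CflarLKO and 2 of 7 tested fell in Fgf18Tg. Of the adipocyte markers only Cidea was called, higher in CflarLKO, while Cfd and Lep were not listed there and Adipoq, Plin1, Cfd and Cidea were not listed on normal diet. No skeletal muscle marker was called, and Ckm, Tnnt3 and Myh4 were not listed on normal diet. In whole liver, fewer hepatocytes and less RNA per hepatocyte cannot be told apart, and the part of these markers in the results for the 45 genes was not tested.

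The genes of fatty acid oxidation were lower in both models with TMM scaling, which sets the bulk of all genes level, but none was lower in CflarLKO when libraries were scaled to hepatocyte marker genes. In CflarLKO livers 33 of 45 fell and none rose at an adjusted p under 0.05, against 13.1% of all 17036 genes tested that fell and 15.6% that rose. At an unadjusted p under 0.05, 38 were lower and 0 were higher, against 6850 of all 17036 genes in either direction. DESeq2 called 35 lower and 0 higher, against 2167 lower and 2401 higher of all 17022 genes it tested. In Fgf18Tg livers 41 passed the filter on low counts, of which 25 fell and 3 rose, against 11.7% of 10909 genes tested that fell and 10.7% that rose. Cpt1b, Cyp4a14, Acot3 and Pdk4 did not pass that filter. The median log2 fold change of the genes was -0.86 in CflarLKO (all genes tested -0.0016) and -0.61 in Fgf18Tg (all genes tested 0.019). All 13 mitochondrial genes fell in CflarLKO with TMM scaling, as did 5 of 8 peroxisomal and 2 of 4 omega oxidation genes, whereas in Fgf18Tg 10 of 13, 6 of 8 and 2 of 3 tested fell. With TMM scaling the medians of these 3 routes were -0.98, -0.57 and -0.53 in CflarLKO and -0.63, -0.89 and -2.45 in Fgf18Tg. Groups did not overlap for 37 of the 45 genes in CflarLKO, each time with the knockout lower (21.0% of all genes were lower and 23.8% higher without overlap), and for 26 of 41 in Fgf18Tg with the transgenic lower (19.3%) and 4, namely Acsl4, Cd36, Ppargc1a and Vnn1, with it higher (19.4%). In fits that each left out 1 library, 22 to 31 genes were lower in CflarLKO, where 21 of the 33 calls held in every fit, and 23 to 29 were lower in Fgf18Tg, where 24 of the 28 calls held.

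**Figure D1:**
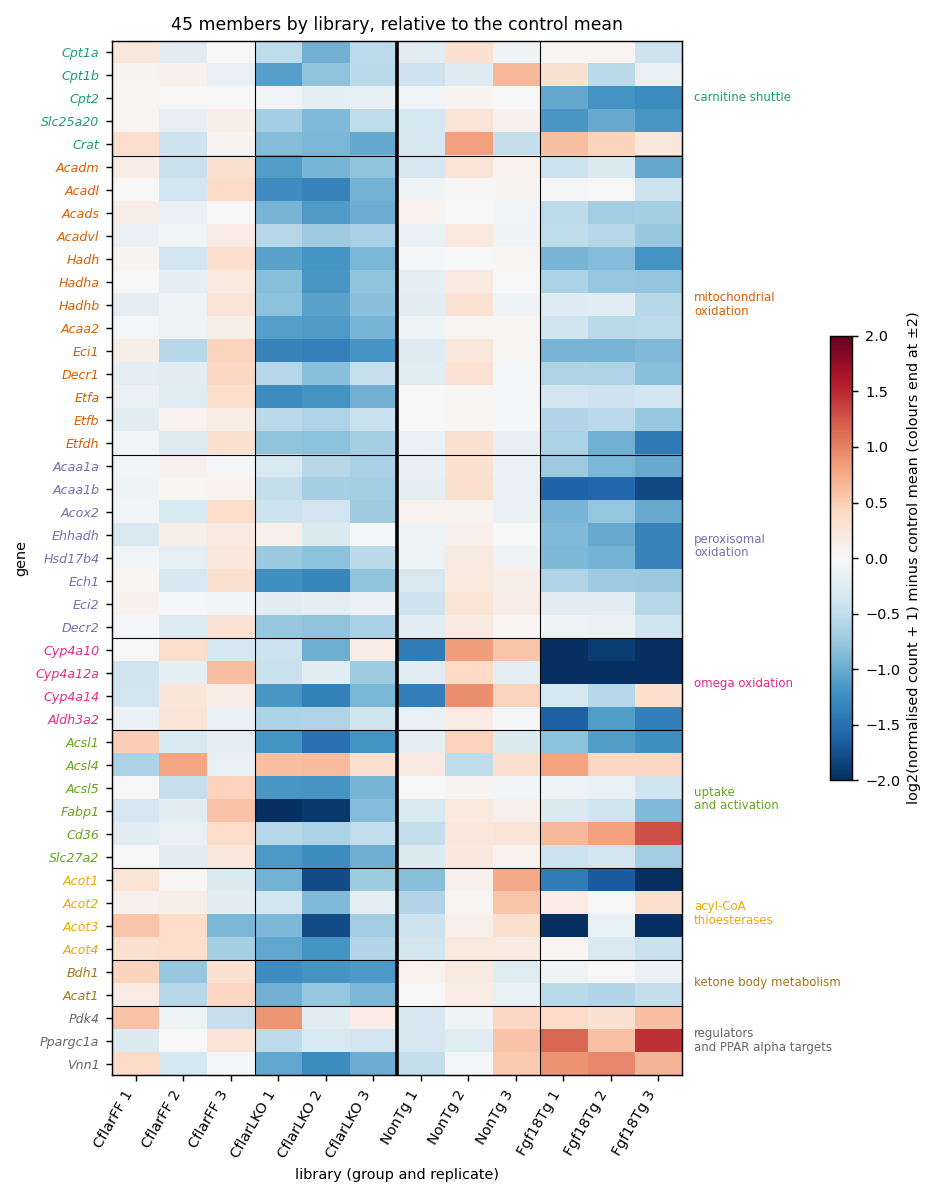
Each row is 1 of the 45 genes, grouped by role, and each column is 1 library; colour gives log2(normalised count + 1) minus the mean of the control group of the same experiment (CflarFF or NonTg), with TMM scaling. The mitochondrial block is blue in all 3 CflarLKO columns, which it is not on the hepatocyte scale, Acaa1b, Cyp4a10, Cyp4a12a and Aldh3a2 are deep blue in the Fgf18Tg columns, and Cd36, Ppargc1a and Vnn1 are red in Fgf18Tg.

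How far the genes fell depended on what the libraries were scaled to, and so did the direction of many in CflarLKO and some in Fgf18Tg. Against TMM, scaling to hepatocyte markers turned the sign of 26 genes in CflarLKO and 6 in Fgf18Tg. Scaling by library size only turned 5 and 9. Scaling by library size only raised the median of all genes to 0.46 in CflarLKO and 0.42 in Fgf18Tg, and 17 of 45 genes were then lower in CflarLKO (3.80% of all genes tested) and 15 of 41 in Fgf18Tg (3.15%). None was higher in CflarLKO by edgeR (1 at an unadjusted p under 0.05, against 39.0% of all genes called higher) and 4 were in Fgf18Tg (33.3%). Scaling to 18 hepatocyte marker genes raised it to 0.96 and 0.32. On that scale none of the 45 genes was lower in CflarLKO (0 at an unadjusted p under 0.05) and 6 were higher, where 74.7% of all genes were higher and 1.08% lower. These were Cpt2, Ehhadh, Eci2, Acsl4, Pdk4 and Ppargc1a, with log2 fold changes of 0.55 to 1.30. The hepatocyte markers had themselves a median of -0.99 in CflarLKO with TMM scaling, next to -0.98 for the mitochondrial genes. In Fgf18Tg, by contrast, the hepatocyte markers had a median of -0.34 with TMM scaling. There 17 of the 41 genes tested stayed lower on the hepatocyte scale, with 4 higher (3.91% of all genes lower and 24.2% higher). Of these 17, 5 were mitochondrial, 6 peroxisomal and 2 omega oxidation genes. The peroxisomal median was -0.60 on that scale in Fgf18Tg and 0.41 in CflarLKO. RLE factors gave the same counts of calls as TMM. Values below use TMM scaling unless another is named.

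**Figure D2:**
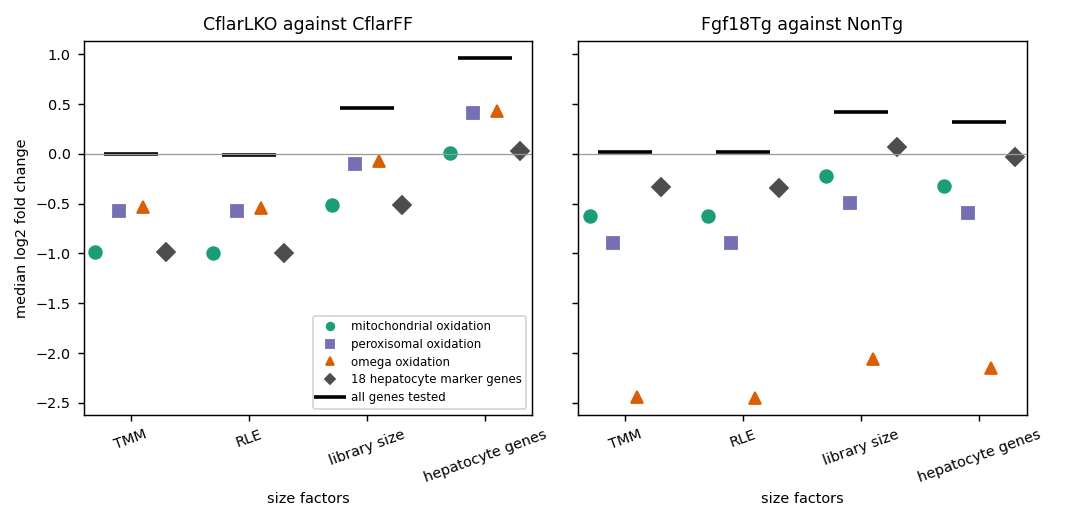
Median log2 fold change (vertical axis) of mitochondrial, peroxisomal and omega oxidation genes, of 18 hepatocyte marker genes and of all genes tested (black bars) under 4 kinds of size factor. In CflarLKO the mitochondrial genes lie beside the hepatocyte markers under each factor and reach 0.0082 on the hepatocyte scale, where the peroxisomal and omega medians are above 0, and in Fgf18Tg all 3 medians stay below 0 and below the hepatocyte markers.

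The element bound by PPAR alpha with RXR is a pair of AGGTCA copies in the same direction with 1 free base between them. RefSeq promoters of 300 bases (250 before to 50 after the start site, build GRCm38.p6) were given for 35 of the 45 genes, and 6 of these (17.1%) held the element on either strand with at most 2 mismatches in its 12 fixed bases, as did 4.4% of 27025 genes. With at most 1 mismatch only Fabp1 remained (2.86% against 0.644%), and no gene held an exact copy. A match describes the letters and does not show that a protein binds there. The 6 matches are shown with 20 bases on each side because they cover 5 of the roles, with the element in capitals; Fabp1, Acot4, Cd36 and Etfa carry it on the opposite strand, so that it reads there as 2 copies of TGACCT. The positions were chr6:71199812-71199824 (Fabp1, gene on the plus strand), chr12:84038366-84038378 (Acot4, plus), chr14:8258818-8258830 (Acox2, minus), chr5:17835947-17835959 (Cd36, minus), chr9:55512308-55512320 (Etfa, minus) and chr9:108662142-108662154 (Slc25a20, plus).
Fabp1: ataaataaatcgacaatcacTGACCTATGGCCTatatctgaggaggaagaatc
Acot4: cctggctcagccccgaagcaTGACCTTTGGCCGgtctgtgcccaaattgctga
Acox2: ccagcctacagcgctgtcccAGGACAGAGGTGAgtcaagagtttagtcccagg
Cd36: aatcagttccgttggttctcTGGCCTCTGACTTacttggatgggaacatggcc
Etfa: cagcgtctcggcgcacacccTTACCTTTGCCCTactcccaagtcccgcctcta
Slc25a20: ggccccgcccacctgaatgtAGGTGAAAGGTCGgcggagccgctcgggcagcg

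The carnitine shuttle, which carries acyl groups across the mitochondrial membranes, fell in part in each model. Slc25a20, the carnitine-acylcarnitine carrier of the inner membrane, was measured at 3106, 2699 and 3298 normalised counts in CflarFF and 1891, 1635 and 2134 in CflarLKO. It was measured at 301, 456 and 408 in NonTg and 170, 191 and 170 in Fgf18Tg. Both pairs of groups were apart, with log2 fold changes of -0.69 ± 0.17 (adjusted p = 0.011) and -1.13 ± 0.15 (3.6e-05). Cpt2, which rebuilds acyl-CoA inside the mitochondrion, was nearly level on the CDE diet, with 1322, 1293 and 1290 against 1251, 1151 and 1157 (-0.13 ± 0.14, adjusted p = 0.50). On normal diet it went from 242, 263 and 251 in NonTg to 124, 110 and 104 in Fgf18Tg, a 2.22-fold fall (-1.15 ± 0.13, adjusted p = 7.7e-06). Crat, which exchanges acetyl groups between carnitine and CoA, fell from 897, 525 and 729 to 384, 369 and 343 in CflarLKO (-0.97 ± 0.18, adjusted p = 0.0030) and was measured at 23.7, 54.2 and 21.5 in NonTg and 46.3, 41.4 and 35.2 in Fgf18Tg, where the groups overlapped (adjusted p = 0.40). Its effects were not shown to differ between the models (adjusted p = 0.087 for the difference). Cpt1a, the rate-controlling enzyme of entry into mitochondria in liver, had 2434, 1764 and 2080 normalised counts in CflarFF and 1456, 1067 and 1441 in CflarLKO. Its fall of 0.66 ± 0.18 on the log2 scale passed the test there (adjusted p = 0.020), and its change in Fgf18Tg was -0.11 ± 0.15 (adjusted p = 0.65). The muscle form Cpt1b had at most 28.3 normalised counts in any CDE diet library and did not pass (adjusted p = 0.054); 78.6% of its 50-base windows recur in a readthrough transcript, so its reads are uncertain.

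In mitochondrial oxidation all 13 genes fell in CflarLKO, by 0.54 to 1.35 on the log2 scale, and each with the groups apart, although on the hepatocyte scale none was called and 7 of the 13 values were above 0. Eci1, which shifts double bonds of unsaturated chains, fell furthest. Its CflarFF libraries were at 3944, 2468 and 4924 and its CflarLKO libraries at 1432, 1414 and 1606 normalised counts (-1.35 ± 0.23, adjusted p = 0.0019). In Fgf18Tg it went from 277, 387 and 333 to 172, 172 and 179 (-0.93 ± 0.13, adjusted p = 1.0e-04). CflarFF replicate 3 was the highest control for 12 of the 13 genes, and NonTg replicate 2 for 10 of them. Of all 45 genes, NonTg replicate 2 was the highest control for 33 and NonTg replicate 1 the lowest for 34. Fgf18Tg replicate 3 was the lowest of its group for 31 and CflarLKO replicate 2 for 30, so many genes shifted together within a library. Acadl, the long-chain acyl-CoA dehydrogenase, fell from 3283, 2552 and 4339 to 1395, 1305 and 1727 in CflarLKO (-1.20 ± 0.21, adjusted p = 0.0020). On normal diet it was at 281, 301 and 309 in NonTg and 293, 295 and 222 in Fgf18Tg, and these overlapped (-0.13 ± 0.13, adjusted p = 0.54). Etfa, a subunit of the flavoprotein that takes electrons from the acyl-CoA dehydrogenases, was at 4615, 4240 and 6416 in CflarFF and 2108, 2196 and 2559 in CflarLKO (-1.15 ± 0.19, adjusted p = 0.0017). Its fall in Fgf18Tg was small but tight, from 870, 889 and 853 to 668, 650 and 667 (-0.40 ± 0.10, adjusted p = 0.0094), and turned to 0.009 with scaling by library size only. Acaa2, the thiolase of the last step, fell from 8484, 8295 and 9490 to 4077, 3990 and 4575 in CflarLKO (-1.06 ± 0.17, adjusted p = 0.0012) and from 1806, 1974 and 1960 to 1458, 1314 and 1334 in Fgf18Tg (-0.48 ± 0.10, adjusted p = 0.0031). The chain-specific dehydrogenases Acads and Acadvl, the trifunctional subunit Hadha, the short-chain enzyme Hadh, the reductase Decr1, and Etfb and Etfdh also fell in both models, and Acadm and Hadhb fell in CflarLKO but did not pass in Fgf18Tg (adjusted p = 0.057 and 0.097). Etfb and Hadhb share 44.8% and 19.7% of their windows with other annotated genes.

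**Figure D3:**
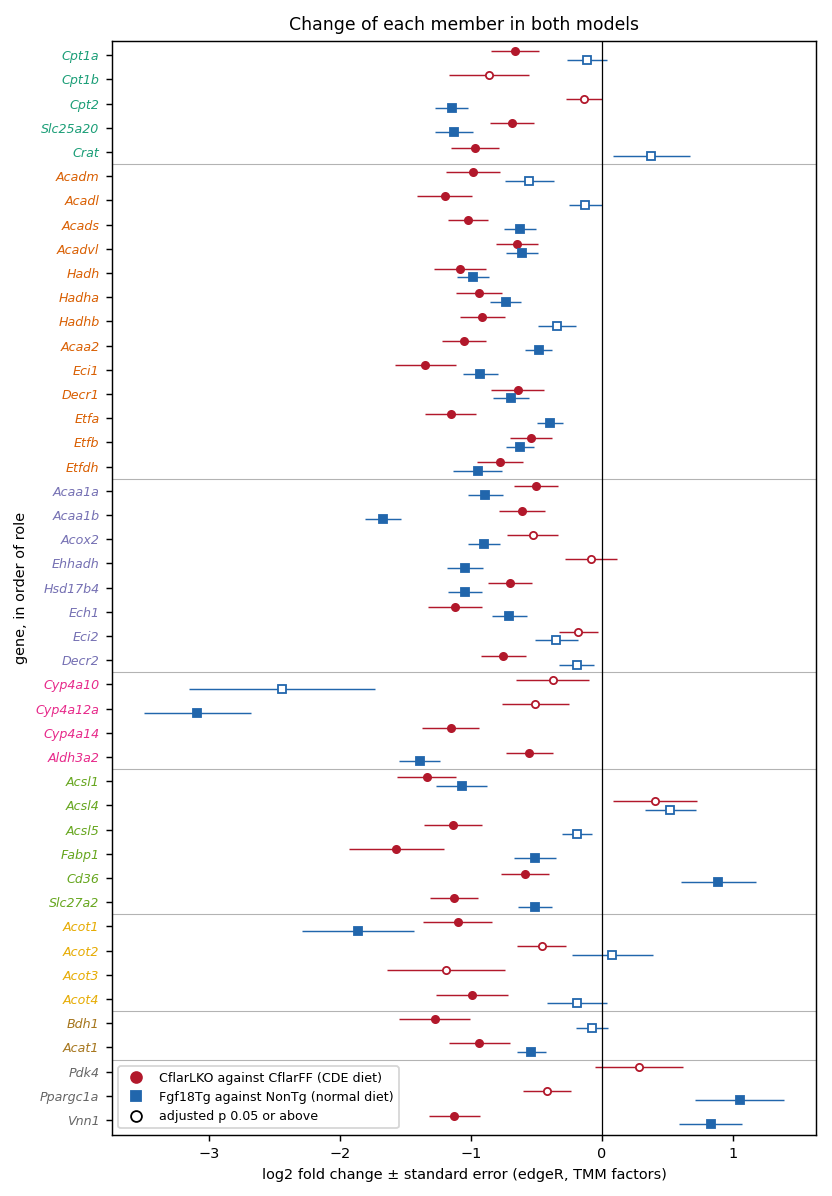
Log2 fold change with its standard error (horizontal axis) for each gene, by role from top to bottom, in CflarLKO against CflarFF (circles) and Fgf18Tg against NonTg (squares), 3 libraries a group, TMM scaling; open symbols did not pass an adjusted p of 0.05. The circles of mitochondrial oxidation lie between -1.35 and -0.54, of which 7 of 13 move above 0 on the hepatocyte scale, Cyp4a12a in Fgf18Tg is the lowest symbol at -3.09, and Cd36, Ppargc1a and Vnn1 are the filled squares above 0.

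Peroxisomal oxidation fell in 5 of 8 genes in CflarLKO and 6 of 8 in Fgf18Tg, with none lower on the hepatocyte scale in the former and the same 6 lower in the latter. Acaa1b, a peroxisomal thiolase, was at 1103, 1554 and 1124 normalised counts in NonTg and 407, 420 and 355 in Fgf18Tg. The 3.19-fold fall (-1.67 ± 0.14, adjusted p = 4.8e-07) had no overlap. On the CDE diet it went from 19325, 20946 and 21623 to 14776, 13024 and 12798 (-0.61 ± 0.17, adjusted p = 0.023). Its paralog Acaa1a fell by 0.89 ± 0.13 in Fgf18Tg (adjusted p = 0.00016) and 0.50 ± 0.17 in CflarLKO (adjusted p = 0.045), the latter lost when any 1 of the 6 libraries was left out. The pair shares 30.5% of Acaa1b and 12.9% of Acaa1a windows with other genes, mostly with each other, so reads may be split between them. Ehhadh, the bifunctional hydratase and dehydrogenase that is a classic PPAR alpha target, was at 11755, 15769 and 16450 in CflarFF and 15505, 11883 and 14217 in CflarLKO, which overlapped (-0.08 ± 0.20, adjusted p = 0.80). In NonTg it was at 266, 307 and 283 and in Fgf18Tg at 154, 141 and 112 (-1.05 ± 0.14, adjusted p = 3.9e-05). Hsd17b4, the second bifunctional enzyme, fell in both, from 3580, 3319 and 4348 to 2235, 2104 and 2576 in CflarLKO (-0.70 ± 0.17, adjusted p = 0.011) and from 616, 747 and 628 to 355, 342 and 260 in Fgf18Tg (-1.05 ± 0.13, adjusted p = 2.7e-05). Ech1, a dienoyl-CoA isomerase, went from 4631, 3609 and 5625 to 1941, 1846 and 2591 in CflarLKO (-1.12 ± 0.21, adjusted p = 0.0027) and from 428, 612 and 590 to 352, 324 and 320 in Fgf18Tg (-0.71 ± 0.13, adjusted p = 0.0011). Acox2, the branched-chain and bile acid oxidase, fell in Fgf18Tg only among the calls (-0.90 ± 0.12, adjusted p = 6.3e-05, against -0.53 ± 0.19 and 0.062 in CflarLKO), Decr2 fell in CflarLKO only (-0.75 ± 0.17, adjusted p = 0.0078, against -0.19 ± 0.13 and 0.33), and Eci2 passed in neither. The effects on Acox2 and Decr2 were not shown to differ between the models (adjusted p = 0.34 and 0.28 for the difference).

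Cyp4a12a, a fatty acid hydroxylase that is male-biased in mouse liver, was at 592, 901 and 606 normalised counts in NonTg and 118, 41.4 and 81.1 in Fgf18Tg. The groups were far apart, with an 8.52-fold fall (-3.09 ± 0.41, adjusted p = 0.0051). On the CDE diet, where all mice were female, it was at 470, 543 and 938 in CflarFF and 455, 535 and 379 in CflarLKO, which overlapped (-0.51 ± 0.25, adjusted p = 0.17). It shares 48.9% of its windows with Cyp4a12b, which fell by 3.32 ± 0.29 in Fgf18Tg (adjusted p = 7.2e-05), so both are uncertain as single genes. Cyp4a14, a lipid-inducible hydroxylase, was at 23069, 35370 and 33278 in CflarFF and 13437, 11813 and 15964 in CflarLKO (-1.15 ± 0.22, adjusted p = 0.0030). Every knockout library was below every control library. On normal diet its counts were too few for the test, with 2.15, 14.5 and 10.2 normalised counts in NonTg and 5.41, 4.50 and 9.18 in Fgf18Tg. Aldh3a2, the fatty aldehyde dehydrogenase of the next step, fell from 189, 237 and 207 to 66.7, 96.3 and 79.5 in Fgf18Tg (-1.39 ± 0.16, adjusted p = 9.2e-06) and from 5433, 7060 and 5366 to 3819, 3881 and 4473 in CflarLKO (-0.55 ± 0.18, adjusted p = 0.038). The latter was lost in 4 of 6 fits that left out 1 library. On the hepatocyte scale no omega oxidation gene was lower in CflarLKO. Cyp4a14 was at -0.21 ± 0.25 there (adjusted p = 0.43) and Aldh3a2 at 0.38 ± 0.23 (0.15). Cyp4a10 had no overlap in Fgf18Tg (33.4, 161 and 132 against 21.0, 23.4 and 10.7) but a wide error (-2.45 ± 0.71, adjusted p = 0.075); it passed without NonTg replicate 1, at -2.91. In CflarLKO it was at -0.37 ± 0.28 (adjusted p = 0.35).

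Of the 6 genes of uptake and activation, 5 fell in CflarLKO and 3 fell in Fgf18Tg. Fabp1, the abundant fatty acid-binding protein of the hepatocyte cytosol whose promoter match is shown above, fell from 19170, 20769 and 35997 to 5953, 6363 and 13269 normalised counts in CflarLKO, a 2.97-fold change (-1.57 ± 0.37, adjusted p = 0.013). Replicate 3 was the highest library in both groups. In Fgf18Tg it was at 12361, 11469 and 8209 against 12213, 17246 and 16222 in NonTg, with overlap (-0.51 ± 0.16, adjusted p = 0.040), and the call was lost in 4 of 6 fits that left out 1 library. Acsl1, the main long-chain acyl-CoA synthetase, went from 9051, 5218 and 5686 to 2805, 2289 and 2802 in CflarLKO (-1.34 ± 0.23, adjusted p = 0.0016) and from 1148, 1783 and 1069 to 738, 601 and 555 in Fgf18Tg (-1.07 ± 0.20, adjusted p = 0.0035). Acsl5, another synthetase, fell from 2226, 1614 and 3065 to 993, 979 and 1167 in CflarLKO (-1.14 ± 0.22, adjusted p = 0.0035), and its change of -0.19 ± 0.12 in Fgf18Tg did not pass (adjusted p = 0.26). Slc27a2, a very long-chain acyl-CoA synthetase and transporter, fell from 6802, 5848 and 8025 to 3072, 2890 and 3489 (-1.13 ± 0.18, adjusted p = 0.0013) and from 1272, 1780 and 1619 to 1142, 1177 and 951 (-0.51 ± 0.13, adjusted p = 0.0095). Acsl4, which prefers arachidonic acid, passed in neither model with TMM scaling (0.40 ± 0.32 and 0.52 ± 0.19). On the hepatocyte scale it was higher in both, at 1.30 ± 0.46 (adjusted p = 0.037) and 0.83 ± 0.18 (0.0023). On that scale 74.7% of all genes tested were higher in CflarLKO and 24.2% in Fgf18Tg. Cd36, the fatty acid translocase, is described here because its direction differed with TMM scaling, and was chosen after its values were seen. It was at 2626, 2719 and 3887 in CflarFF and 2046, 1949 and 2158 in CflarLKO (-0.59 ± 0.18, adjusted p = 0.034), and at 11.8, 19.8 and 20.3 in NonTg and 27.0, 30.6 and 42.8 in Fgf18Tg (0.89 ± 0.29, adjusted p = 0.033). On the hepatocyte scale both values were above 0, at 0.40 ± 0.21 (adjusted p = 0.090) and 1.20 ± 0.29 (0.0045), and the difference between them did not pass (adjusted p = 0.086). Neither pair overlapped with TMM scaling, but each call was lost in 4 of 6 fits that left out 1 library, and CD36 is also made by macrophages and endothelial cells, whose markers are given above.

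The acyl-CoA thioesterases, which free fatty acids from CoA, lie together on chromosome 12 and share sequence, so their reads may be split. Acot1, the cytosolic member, fell from 3579, 3065 and 2474 to 1555, 865 and 1834 in CflarLKO (-1.10 ± 0.26, adjusted p = 0.011). In Fgf18Tg it went from 11.8, 23.8 and 38.4 to 7.81, 6.30 and 4.59 (-1.86 ± 0.43, adjusted p = 0.0051), at low counts but with no overlap. Acot4, a peroxisomal member, was at 2552, 2645 and 1307 in CflarFF and 1004, 897 and 1377 in CflarLKO. It passed the test (-0.99 ± 0.27, adjusted p = 0.024) although CflarFF replicate 3 fell among the knockouts. The mitochondrial Acot2 and the peroxisomal Acot3 had log2 fold changes of -0.46 ± 0.19 and -1.19 ± 0.45 in CflarLKO and did not pass (adjusted p = 0.092 and 0.097).

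Of the genes of ketone body metabolism, Bdh1, which interconverts acetoacetate and hydroxybutyrate, fell from 4803, 2093 and 4377 normalised counts to 1493, 1565 and 1590 in CflarLKO (-1.28 ± 0.27, adjusted p = 0.0065). In Fgf18Tg it was at 393, 413 and 382 against 435, 470 and 349 and overlapped (-0.08 ± 0.12, adjusted p = 0.71). Acat1, the mitochondrial acetoacetyl-CoA thiolase, fell in both, from 6056, 3663 and 7198 to 2797, 3162 and 2880 (-0.94 ± 0.23, adjusted p = 0.012) and from 633, 699 and 568 to 432, 421 and 456 (-0.54 ± 0.11, adjusted p = 0.0025). CflarFF replicate 2 was the lowest control for both genes.

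The regulators and PPAR alpha targets went different ways. Vnn1, a pantetheinase induced by PPAR alpha, fell from 2147, 1298 and 1622 to 803, 688 and 831 in CflarLKO (-1.13 ± 0.19, adjusted p = 0.0018) and rose from 19.4, 26.4 and 39.6 in NonTg to 51.7, 54.0 and 44.4 in Fgf18Tg (0.83 ± 0.24, adjusted p = 0.020). On the hepatocyte scale its fall in CflarLKO did not pass (-0.14 ± 0.21, adjusted p = 0.55), and its rise in Fgf18Tg did (1.14 ± 0.24, 0.0014). Ppargc1a, a coactivator of oxidative genes, rose in Fgf18Tg from 8.61, 9.25 and 17.0 to 25.8, 17.1 and 32.1 (1.05 ± 0.34, adjusted p = 0.035), where the groups were apart by a small margin. In CflarLKO it was at -0.42 ± 0.18 (adjusted p = 0.11). Both rises, like that of Cd36, were lost in 4 of 6 fits that left out 1 library and with DESeq2 (adjusted p = 0.071 for Vnn1, 0.099 for Cd36 and 0.10 for Ppargc1a). Pdk4, which restrains pyruvate oxidation, did not pass in CflarLKO (0.29 ± 0.34, adjusted p = 0.57).

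Across both models 21 genes fell in each, which is 63.6% of the 33 called in CflarLKO and 84.0% of the 25 called in Fgf18Tg. Of all 9968 genes tested in both, 6.83% fell in each, and on the hepatocyte scale none of the 45 genes fell in both, since none was lower in CflarLKO. Over the 41 genes tested in both, the 2 effects had a Pearson r of -0.05 and a Spearman rho of -0.14, which describes genes of the same libraries. The difference between the effects was tested in 1 fit of all 12 libraries, as the CflarLKO effect minus the Fgf18Tg effect. Diet, sex, age, housing and allele cannot be told apart in it. The difference passed for 8 of 45 genes. For 5 it was positive, against 1.32% of 13956 genes tested, and for 3 negative, against 1.78%. The positive ones, which fell further in Fgf18Tg, were Cyp4a12a (2.68 ± 0.53, adjusted p = 0.027), Acaa1b (1.15 ± 0.23, 0.0083), Cpt2 (1.10 ± 0.18, 0.0015), Ehhadh (1.06 ± 0.25, 0.023) and Aldh3a2 (0.92 ± 0.23, 0.036). None of them belongs to mitochondrial beta oxidation itself. The negative ones were Vnn1 (-1.87 ± 0.31, 0.0019), Cd36 (-1.40 ± 0.32, 0.019) and Acadl (-0.99 ± 0.25, 0.036). With TMM scaling Vnn1 and Cd36 moved in opposite directions, and Acadl fell in CflarLKO only. On the hepatocyte scale Cd36 was above 0 in both models, and the fall of Vnn1 in CflarLKO did not pass (-0.14 ± 0.21, adjusted p = 0.55). All 5 positive differences and that of Vnn1 also passed on the hepatocyte scale. In the 12 fits that each left out 1 library, Cpt2, Acaa1b and Vnn1 passed every time, while Cd36 was lost in 2, Cyp4a12a and Ehhadh in 6, Acadl in 9 and Aldh3a2 in 10.

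**Figure D4:**
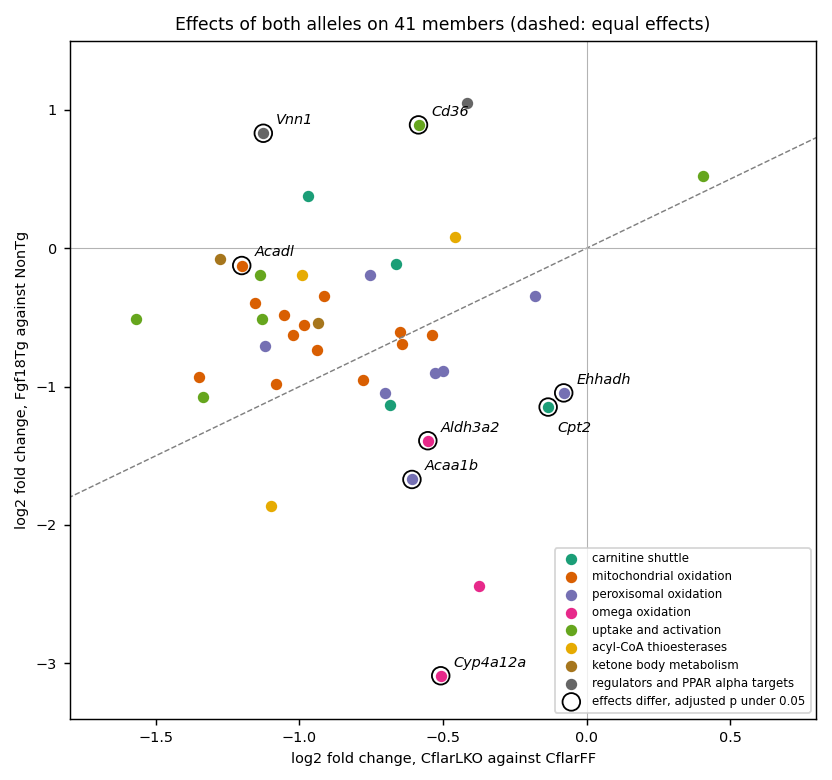
Log2 fold change in CflarLKO against CflarFF (horizontal axis) and in Fgf18Tg against NonTg (vertical axis) for the 41 genes tested in both, coloured by role, TMM scaling; rings mark the 8 genes whose effects differed at an adjusted p under 0.05, and the dashed line marks equal effects. Cyp4a12a, Acaa1b, Aldh3a2, Cpt2 and Ehhadh lie below the line, and Vnn1, Cd36 and Acadl lie above it.

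Levels also differed between the experiments. On a scale of CPM (counts scaled to the same total in each library over the genes in both tables), the mean of CflarFF was above that of NonTg for 41 of 45 genes, with a median ratio of 2.25, and over 10-fold above it for 9. These were Cyp4a14, Acot1, Acot2, Acot3, Acot4, Pdk4, Cd36, Vnn1 and Ehhadh. Cyp4a14 was at 2459, 4323 and 3573 CPM in CflarFF and 0.93, 6.54 and 4.36 in NonTg. Ehhadh was at 1253, 1928 and 1766 against 115, 138 and 121. Cd36 was at 280, 332 and 417 against 5.11, 8.91 and 8.73. The mitochondrial genes had a median ratio of 1.96 and none was over 10. Cyp4a12a, Fabp1, Cpt1a and Etfb went the other way, with ratios of 0.24 to 0.74. The tables were normalised separately, and diet, sex, age, housing and genotype cannot be told apart here, so no test was made. The ratio was not computed over all genes, so these counts and medians cannot be called particular to the 45 genes.

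**Figure D5:**
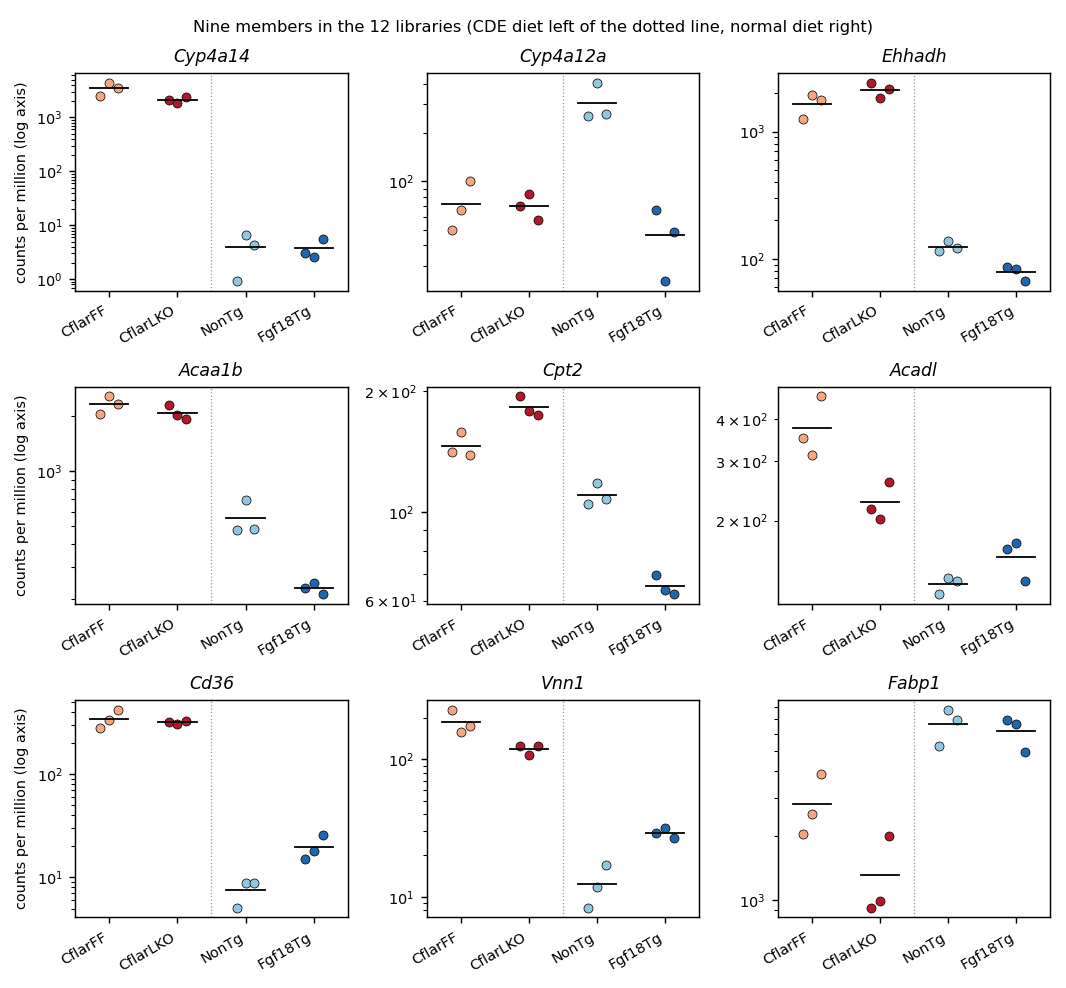
CPM over genes in both tables (log axis) for 9 genes in each of the 12 libraries; points are libraries and bars are group means. Cyp4a14, Ehhadh, Acaa1b, Cd36 and Vnn1 are far higher in the CDE diet libraries and Cyp4a12a and Fabp1 in NonTg than in CflarFF; on this scale of library size only, Cpt2 and Ehhadh have higher means in CflarLKO than in CflarFF, unlike with TMM scaling.

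Of 57 other genes of the pathway, 55 were tested in CflarLKO. With TMM scaling 27 fell and 5 rose there, against 13.1% and 15.6% of all genes tested. On the hepatocyte scale 4 fell and 25 rose, against 1.08% and 74.7% of all genes. In Fgf18Tg 24 of 50 tested fell and 3 rose with TMM scaling, against 11.7% and 10.7% of all genes. There 17 fell and 4 rose on the hepatocyte scale, against 3.91% and 24.2%. Of the peroxisomal ones 10 of 14 fell and 1 rose in each model with TMM scaling (2 lower and 4 higher in CflarLKO on the hepatocyte scale). Of 11 listed as mitochondrial, 2 fell and 2 rose in CflarLKO, and 4 of 8 tested fell in Fgf18Tg, 1 of which was Slc25a17, a carrier of the peroxisomal membrane. Of 7 omega oxidation genes tested in each, 3 fell in CflarLKO and 2 in Fgf18Tg. In Fgf18Tg their median of -0.33 was nearer 0 than those of the peroxisomal (-0.72) and mitochondrial (-0.35) ones. In CflarLKO with TMM scaling the medians were 0.019 for the mitochondrial, -0.98 for the peroxisomal and -0.52 for the omega ones. The genes followed above had -0.98 for mitochondrial and -0.57 for peroxisomal oxidation there. Which of these 2 routes had the lower median in CflarLKO thus depended on the genes chosen. Of 5 other ketone body genes, 4 fell and 1 rose in CflarLKO, and 3 fell and 1 rose in Fgf18Tg, with TMM scaling. On the hepatocyte scale 1 fell and 1 rose in CflarLKO, and 1 fell and 2 rose in Fgf18Tg. The gene that rose in both with TMM scaling was Oxct1, which burns ketone bodies and is scarce in hepatocytes. It went from 31.1, 56.6 and 44.0 to 185, 127 and 126 (1.74 ± 0.25, adjusted p = 0.00077) and from 7.53, 5.29 and 10.2 to 30.6, 31.5 and 30.6 (1.98 ± 0.31, adjusted p = 0.00020). Ppara itself fell by 1.35 ± 0.27 in CflarLKO (adjusted p = 0.0063) and 0.46 ± 0.13 in Fgf18Tg (adjusted p = 0.017) with TMM scaling. On the hepatocyte scale neither passed, at -0.34 ± 0.23 (adjusted p = 0.18) and -0.15 ± 0.14 (0.44), and with library size only the change in Fgf18Tg was -0.05 ± 0.14 (0.81).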

How the data were processed

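PolyA RNA of whole livers was amplified by PCR without molecular identifiers and sequenced on an Illumina NovaSeq instrument. The authors aligned reads to GRCm39 with Bowtie2; the counter, the annotation and strand use are not given in the sources used here. The deposited files hold read counts per gene, used in every test, and the same counts as a normalised signal, which the authors made with TCC-GUI by dividing each library by 1 factor. That signal entered only 1 alternative, as log2(value + 1).

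Counts were fitted for each experiment with edgeR 4.0.16 in R 4.3.3 (TMM factors, filterByExpr with a minimum count of 10 and total of 15, robust quasi-likelihood F test). P-values were adjusted by Benjamini-Hochberg over all genes tested and called under 0.05. The difference between the effects was an interaction over all 12 libraries. Normalised counts are counts divided by the effective library size and multiplied by its mean within the experiment. Scripts were tested on simulated data. Depth per library, from 1136680 to 10414883 counts, limits the precision of low genes most on normal diet.

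The 45 genes and all lists were chosen with earlier results of these data known. All 45 are accounted for by role. Values per library are given for up to 4 of each role, namely the one with the highest counts and those with the largest change among genes called. Cd36, beyond the 4 of its role, and Cyp4a10, which was not called, were added after their values were seen. Alternatives were RLE, library size and hepatocyte marker factors, limma 3.58.1, DESeq2 1.42.0, other filters and thresholds, leaving out each library, a replicate block, and 1 fit of all libraries. Shared sequence was the share of 50-base windows of GENCODE vM21 transcripts found in another gene. Some genes of the pathway are not reported here.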

Additional observations from a re-analysis of the deposited data

Results flagged for a closer look

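These genes were singled out because the effects of the 2 alleles differed by the interaction test (edgeR, adjusted p under 0.05). Of the 45 genes they were Cpt2 (1.10), Acaa1b (1.15), Ehhadh (1.06), Cyp4a12a (2.68), Aldh3a2 (0.92), Acadl (-0.99), Cd36 (-1.40) and Vnn1 (-1.87), given as the CflarLKO effect minus the Fgf18Tg effect on the log2 scale. Of the other genes of the pathway they were the peroxisomal carrier Slc25a17 (1.05), Cyp4a12b (3.96), the thioredoxin inhibitor Txnip (1.04), the phytanoyl-CoA hydroxylase Phyh (-1.09), the peroxisomal transporter Abcd2 (-3.25), the hydroxylase Cyp4f14 (-1.24) and the acetyl-CoA carboxylase Acacb (-1.91). With TMM scaling Abcd2 fell from 332, 203 and 296 normalised counts to 121, 81.7 and 81.8 in CflarLKO. In Fgf18Tg it rose from 28.0, 15.9 and 15.8 to 80.5, 80.1 and 44.4, and neither pair overlapped. Acacb did the same, from 353, 264 and 533 to 176, 166 and 156 in CflarLKO. In Fgf18Tg it went from 22.6, 18.5 and 27.1 to 43.9, 28.8 and 47.4, apart by a small margin. On the hepatocyte scale none of the 11 other regulators and PPAR alpha targets, Acacb among them, was lower in CflarLKO. Diet, sex, age, housing and allele cannot be told apart in these differences.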

How the results depend on the processing

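The counts and directions depended most on the scaling, and the cause was not tested. With library size only, 17 genes were lower in CflarLKO (8 mitochondrial, 1 peroxisomal and 1 omega) and 15 in Fgf18Tg (4 mitochondrial), and of the other pathway genes 16 were lower and 14 higher in CflarLKO and 12 and 6 in Fgf18Tg. On the hepatocyte scale 0 were lower and 6 higher in CflarLKO (0 of each of the 3 routes lower), 5 mitochondrial genes were lower in Fgf18Tg, and 4 other pathway genes were lower and 25 higher in CflarLKO. The median of all genes tested was 0.46 in CflarLKO and 0.42 in Fgf18Tg with library size only. On the hepatocyte scale it was 0.96 and 0.32, and 74.7% of all genes were called higher in CflarLKO. Values above 0 in CflarLKO on that scale, against values below 0 with TMM, were Cpt1a 0.32, Cpt1b 0.10, Cpt2 0.83, Slc25a20 0.29, Crat 0.025, Acadm 0.008, Acadvl 0.32, Hadha 0.041, Hadhb 0.061, Decr1 0.35, Etfb 0.42, Etfdh 0.21, Acaa1a 0.46, Acaa1b 0.36, Acox2 0.47, Ehhadh 0.88, Hsd17b4 0.27, Eci2 0.78, Decr2 0.23, Cyp4a10 0.54, Cyp4a12a 0.49, Aldh3a2 0.38, Cd36 0.40, Acot2 0.49, Acat1 0.071 and Ppargc1a 0.55. With library size only they were Cpt2 0.32, Ehhadh 0.37, Eci2 0.28, Cyp4a10 0.065 and Ppargc1a 0.037. In Fgf18Tg they were Cpt1a 0.18, Acadl 0.18, Decr2 0.11, Acsl5 0.11, Acot4 0.10 and Bdh1 0.22 on the hepatocyte scale, and Cpt1a 0.29, Acadl 0.28, Hadhb 0.054, Etfa 0.009, Eci2 0.05, Decr2 0.21, Acsl5 0.21, Acot4 0.20 and Bdh1 0.33 with library size only.

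An adjusted p under 0.01 left 19 genes lower in CflarLKO (2 peroxisomal, 1 omega), 3 other pathway genes higher there and 0 genes higher in Fgf18Tg, and it called fewer by construction. Adding a 2-fold threshold left 15 lower in CflarLKO (6 mitochondrial, 1 peroxisomal, 1 omega), 9 lower in Fgf18Tg (0 mitochondrial, 3 peroxisomal) and 1 higher, and 15 lower and 2 higher of the other pathway genes in CflarLKO and 6 lower in Fgf18Tg. DESeq2 called 0 higher in Fgf18Tg and 8 negative differences, and limma 1 omega gene lower in CflarLKO. Without a filter there were 6 negative and 3 positive differences and 5 other pathway genes higher in Fgf18Tg, and negative differences numbered 5 with library size only and 1 on the hepatocyte scale. At most 1 mismatch left 1 promoter match and an exact copy 0.

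Leaving out 1 library gave 22 to 31 genes lower and 0 to 1 higher in CflarLKO (1 without CflarFF replicate 2), and 23 to 29 lower and 0 to 4 higher in Fgf18Tg (0 without NonTg replicate 1). It gave 10 to 13 mitochondrial, 2 to 5 peroxisomal and 1 to 2 omega genes lower in CflarLKO, 1 to 8 negative differences (8 without CflarFF replicate 2, 1 without NonTg replicate 1) and 2 to 5 positive ones. Signs turned for 4 genes that did not pass the test. In CflarLKO Ehhadh ranged from -0.220 to 0.019 (above 0 without CflarFF replicate 3 or CflarLKO replicate 2) and Pdk4 from -0.084 (without CflarLKO replicate 1) to 0.615. In Fgf18Tg Cpt1a ranged from -0.240 to 0.037 (above 0 without NonTg replicate 2 or Fgf18Tg replicate 3) and Acot2 from -0.213 (without NonTg replicate 1) to 0.413. The CflarLKO calls of Slc25a20 and Acadvl were lost without CflarLKO replicate 2, of Acat1 without CflarLKO replicate 1, of Hsd17b4 without either, of Cpt1a without CflarFF replicate 1 or CflarLKO replicate 2, of Acaa1b in 3 of 6 fits, and of Decr1 and Etfb in 4 of 6.

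No sign was seen that replicate numbers pair the libraries. The deviations of same-numbered libraries correlated at -0.11 to 0.04 in the CDE diet experiment and -0.04 to 0.08 in the other. Libraries of unlike number gave -0.02 to 0.12 and -0.10 to 0.09. With 3 libraries a group this cannot exclude a pairing. With the replicate number as a block 30 genes were lower and 0 higher in CflarLKO, 25 lower and 4 higher in Fgf18Tg, 1 omega gene was lower in each, and 4 differences were negative and 4 positive. Depth limits what can be said of Cpt1b, Cyp4a14, Acot3 and Pdk4 on normal diet.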
